A study of Homo sapiens with 4 samples.

Results

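UDP-glucuronosyltransferases of the UGT1A and UGT2B families were followed in 22Rv1, a line of human prostate cancer cells. One group received vehicle and the other WCE, a herbal extract, at 10 µg/mL for 16 h, and each group had 2 Illumina bead arrays. The labels give no other treatment. They do not say whether arrays of a group stand for separate cultures, and every p-value below therefore rests on a spread that may be technical. The members were every array probe whose platform-annotation symbol was UGT1A1, UGT1A3, UGT1A6, UGT2B4, UGT2B7, UGT2B10, UGT2B11, UGT2B15, UGT2B17 or UGT2B28. The rule uses symbols and no measured value, but these genes were picked with earlier results of the same data known. These 10 of 20046 named genes had 18 of 47320 probes, 5 for the 3 UGT1A genes and 13 for the 7 UGT2B genes.

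These enzymes sit in the membrane of the endoplasmic reticulum and join glucuronic acid to small fat-soluble molecules, which can then leave the cell. The human UGT1A genes lie side by side on chromosome 2, where each has its own promoter and first exon and all share the remaining exons. In the RefSeq gene table all 9 protein-coding UGT1A genes had the same 3′ end. UGT2B genes lie on chromosome 4, and each has its own full set of exons. In the prostate UGT2B15 and UGT2B17 inactivate dihydrotestosterone, and androgens are known to repress both. UGT1A1 is the enzyme that conjugates bilirubin.

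RefSeq promoter windows, each from 250 bases before to 50 after a start site, were found for 7 of the 10 members (8 windows, build GRCh38.p14). UGT2B4, UGT2B17 and UGT2B28 had no window and were not examined. The windows printed are those of the UGT1A gene that rose, of the UGT1A members that did not pass the test, and of a UGT2B gene with a probe that fell. Capitals mark GCGTG, the core bound by the aryl hydrocarbon receptor, GTTAAT, the core of the site of the liver and gut factor HNF1, and AGAACA, the core of the androgen receptor's site, on either strand. No matches of different motifs overlapped in these windows.
UGT1A1, chr2:233760020-233760319, plus strand: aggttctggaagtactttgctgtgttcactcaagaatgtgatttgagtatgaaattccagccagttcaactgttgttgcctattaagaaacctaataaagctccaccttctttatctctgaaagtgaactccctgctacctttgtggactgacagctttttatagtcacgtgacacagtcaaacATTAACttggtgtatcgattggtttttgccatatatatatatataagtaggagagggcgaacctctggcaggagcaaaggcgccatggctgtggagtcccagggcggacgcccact
UGT1A3, chr2:233728792-233729091, plus strand: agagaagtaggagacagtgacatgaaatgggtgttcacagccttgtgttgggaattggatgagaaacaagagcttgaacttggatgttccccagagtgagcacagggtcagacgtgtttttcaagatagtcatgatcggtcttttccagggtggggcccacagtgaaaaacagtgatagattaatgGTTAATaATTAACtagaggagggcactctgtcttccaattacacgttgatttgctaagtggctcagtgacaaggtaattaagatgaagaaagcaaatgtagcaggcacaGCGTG
UGT1A6, chr2:233691452-233691751, plus strand, the first of its windows: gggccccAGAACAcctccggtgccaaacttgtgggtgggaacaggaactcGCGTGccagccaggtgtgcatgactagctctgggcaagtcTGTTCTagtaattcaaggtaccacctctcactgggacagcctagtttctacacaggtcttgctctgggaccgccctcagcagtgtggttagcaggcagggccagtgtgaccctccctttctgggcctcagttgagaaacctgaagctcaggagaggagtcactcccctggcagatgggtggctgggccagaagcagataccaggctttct
UGT2B15, chr4:68670603-68670902, minus strand: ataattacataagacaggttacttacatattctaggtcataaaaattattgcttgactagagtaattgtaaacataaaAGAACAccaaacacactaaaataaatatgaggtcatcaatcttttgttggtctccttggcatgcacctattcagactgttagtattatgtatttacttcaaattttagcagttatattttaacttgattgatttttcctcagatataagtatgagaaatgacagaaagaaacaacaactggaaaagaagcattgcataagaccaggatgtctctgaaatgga
GCGTG was absent from the UGT1A1 window and present once in that of UGT1A3 and in the first window of UGT1A6, at base 46 and base -200 counted from the start site. It occurred in 36.5% of all 35116 windows of the same length. The UGT1A1 window held GTTAAT once, on the minus strand at base -66. The UGT1A3 window held it on both strands at bases -64 and -57, and the other UGT1A6 window, not printed, held it once on the minus strand at base -75, against 6.88% of all windows with at least 1 match. AGAACA occurred in 14.8% of all windows, in the UGT2B15 window at base -172 and on both strands of the first UGT1A6 window at bases -243 and -160, while the UGT2B7, UGT2B10 and UGT2B11 windows held none of the 3 motifs. A global alignment gave 91.3% identity between the UGT2B10 and UGT2B11 windows and 75% between UGT2B11 and UGT2B15. The UGT1A1 and UGT1A3 windows had 52.3%, no more than UGT1A1 had with the UGT2B windows (52.3% to 54.7%). A match describes these letters only.

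Median raw signals of the arrays lay between 81.7 and 85.1. The share of probes detected, meaning a deposited detection p-value below 0.05, ran from 45.2% to 48.9%. The WCE arrays lay farther apart than the vehicle arrays, with 305 and 52 tested probes differing over 2-fold within these pairs. Of 7 prostate luminal marker genes with a probe, 6 were detected on all 4 arrays, KLK3 being the exception, and the list's summed raw signal over 9 probes was 12169 and 12748 with vehicle and 13008 and 12015 with WCE. FOXA1 gave most of that sum. Of the 6 tested luminal genes 5 had a value below 0, with a median log2 fold change of -0.23, and 1 of them, TMPRSS2, fell. Among markers of other cells, none of 3 endothelial genes was detected on any array, while 2 of 4 leukocyte, 2 of 5 fibroblast and 1 of 6 hepatocyte genes were detected on all 4.

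WCE was set against vehicle probe by probe. Of the 18 member probes, 11 passed the detection filter (both arrays of at least 1 group detected) and were tested in 1 limma fit over 21996 probes, 3 of UGT1A and 8 of UGT2B. Of the 3 UGT1A probes 1 rose and 0 fell, and of the 8 UGT2B probes 2 fell and 0 rose, at an adjusted p (Benjamini-Hochberg over all tested probes) below 0.05. Over all tested probes 0.846% passed in either direction, 0.532% higher and 0.314% lower. At an unadjusted limma p below 0.05 the UGT1A count was again 1 higher and 0 lower, and that of UGT2B was 0 higher and 5 lower, against 8.44% higher and 9.43% lower of all tested probes. The median log2 fold change was 0.27 for the 3 UGT1A probes and -0.65 for the 8 UGT2B probes, beside 0.0047 for all tested probes. The UGT1A6 probe among them passed the detection filter only through the WCE arrays, the group where its mean was higher. The difference between the families is described here and was not tested. With 2 arrays against 2, exact permutation (two-sided) has a smallest p of 0.333, and each call rests on the variance that limma pools over probes.

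**Figure D1:**
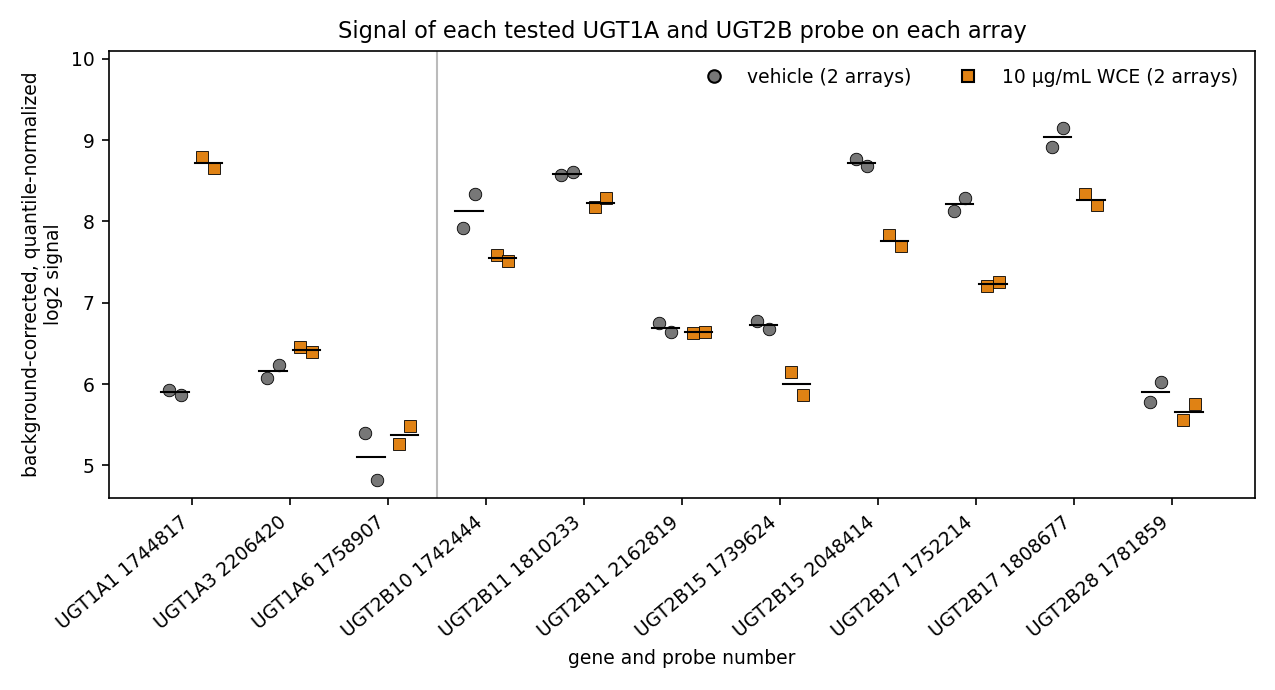
Background-corrected, quantile-normalized log2 signal (y axis) of the 11 tested member probes (x axis) on each of the 4 arrays, with circles for vehicle, squares for WCE and bars for group means of 2 arrays. UGT1A1 stands at 5.86 and 5.93 with vehicle and at 8.65 and 8.79 with WCE, while all 8 UGT2B probes have a lower mean with WCE than with vehicle.

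UGT1A1 was the member with the largest change. Its probe (ILMN_1744817) had raw signals of 113.4 and 109.5 with vehicle and of 555.1 and 435 with WCE. After background correction and normalization these were log2 signals of 5.93 and 5.86 with vehicle and 8.79 and 8.65 with WCE. Both WCE arrays were far above both vehicle arrays. UGT1A1 rose by 2.82 ± 0.17 (log2 fold change, SE of the fit, n = 2 per group), or 7.09-fold, with an adjusted p of 0.000239 (limma). It ranked 8th among all tested probes by the size of the rise. With vehicle the probe was dim, and the fold depended on how background was removed. It was 4.23-fold without background correction and 4.30-fold in the authors' processed values. The adjusted p (limma) lay between 2.52e-30 and 0.0112 over all 13 alternatives. The lowest came from the replicate block, where every tested member probe had the same SE of 0.233, and carries no weight with 4 arrays.

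The other UGT1A members had much smaller values. UGT1A3 acts on bile acids and steroids, and its probe had log2 signals of 6.07 and 6.24 with vehicle and 6.45 and 6.39 with WCE. The groups did not overlap, as was the case for 24.5% of all tested probes in that direction. Its log2 fold change was 0.27 with a 95% interval of the fit from -0.12 to 0.65 (adjusted p = 0.453, limma). That interval lay wholly below the one of UGT1A1, from 2.44 to 3.21. UGT1A6 conjugates small planar phenols, and 1 of its 3 probes (ILMN_1758907) was tested, with log2 signals of 5.39 and 4.82 with vehicle and 5.26 and 5.48 with WCE. It was detected on 1 of the 2 vehicle arrays, the groups overlapped, and the log2 fold change was 0.26 (interval -0.23 to 0.76, adjusted p = 0.577, limma). Without vehicle replicate 2 that value was -0.023. The intervals of UGT1A3 and UGT1A6 lay above those of all 4 UGT2B15 and UGT2B17 probes, whose upper ends ran from -0.60 to -0.31, and overlapped those of UGT2B11 and UGT2B28.

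The remaining 2 UGT1A6 probes were detected on no array. Probes of the UGT1A genes outside the members, 6 probes for UGT1A4, UGT1A5, UGT1A7, UGT1A8, UGT1A9 and UGT1A10, were likewise detected on no array, with raw signals between 56.4 and 77.1. The files do not say which exon a probe reads. A probe in the shared exons would read transcripts of every UGT1A gene, so the UGT1A1 signal is that of the probe assigned to UGT1A1.

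UGT2B15 and UGT2B17, the androgen-inactivating members, had the lowest values of the UGT2B family as processed here. UGT2B15 was read by 2 probes. The brighter (ILMN_2048414) had log2 signals of 8.77 and 8.68 with vehicle and 7.83 and 7.70 with WCE, and the dimmer (ILMN_1739624) 6.77 and 6.67 against 6.15 and 5.86. In both, each WCE array was below each vehicle array. The brighter probe fell by 0.96 ± 0.17 (log2, SE), with a 1.95-fold higher signal in vehicle (adjusted p = 0.0429, limma). The dimmer had a log2 fold change of -0.72 ± 0.18 (adjusted p = 0.108, limma).

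UGT2B17 had 4 probes, of which 2 were detected on all arrays and 2 on none. ILMN_1752214 had log2 signals of 8.13 and 8.29 with vehicle and 7.21 and 7.25 with WCE, and ILMN_1808677 had 8.92 and 9.15 against 8.34 and 8.20. Again the groups did not overlap for either probe. The first fell by 0.98 ± 0.17 (log2, SE), with a 1.97-fold higher signal in vehicle (adjusted p = 0.0410, limma), and the second had -0.77 ± 0.17 (adjusted p = 0.0883, limma). The 4 values of these 2 genes thus lay between -0.98 and -0.72 with overlapping 95% intervals, and the threshold fell between probes of the same gene. The coding sequences of UGT2B15 and UGT2B17 are close to each other, and whether each probe reads its own gene alone is uncertain.

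Both calls were close to the threshold and depended on single arrays. The called UGT2B15 probe had adjusted p-values of 0.296, 0.17 and 0.151 without vehicle replicate 1, vehicle replicate 2 and WCE replicate 2, and the called UGT2B17 probe 0.203, 0.217 and 0.126 (limma). Over all 13 alternatives the adjusted p ran from 0.00235 to 0.296 and from 0.00184 to 0.217, with log2 fold changes from -1.02 to -0.82 and from -1.05 to -0.78. The lowest p of each probe came from the replicate block, where every tested member probe had the same SE of 0.233. Neither called probe passed under median scaling (0.102 and 0.0878, limma) or without the detection filter (0.123 and 0.119). Under cyclic loess the UGT2B15 probe had 0.0506 and the UGT2B17 probe 0.0481. The other UGT2B17 probe passed in 6 of the 13 alternatives, with 0.0364 when background was left in, and the other UGT2B15 probe in 2. Without background correction the latter had -0.43, above UGT2B10 at -0.47, and UGT2B10 was also the lower of the pair in the authors' processed values (-0.48 against -0.45) and without vehicle replicate 1 (-0.79 against -0.67).

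**Figure D2:**
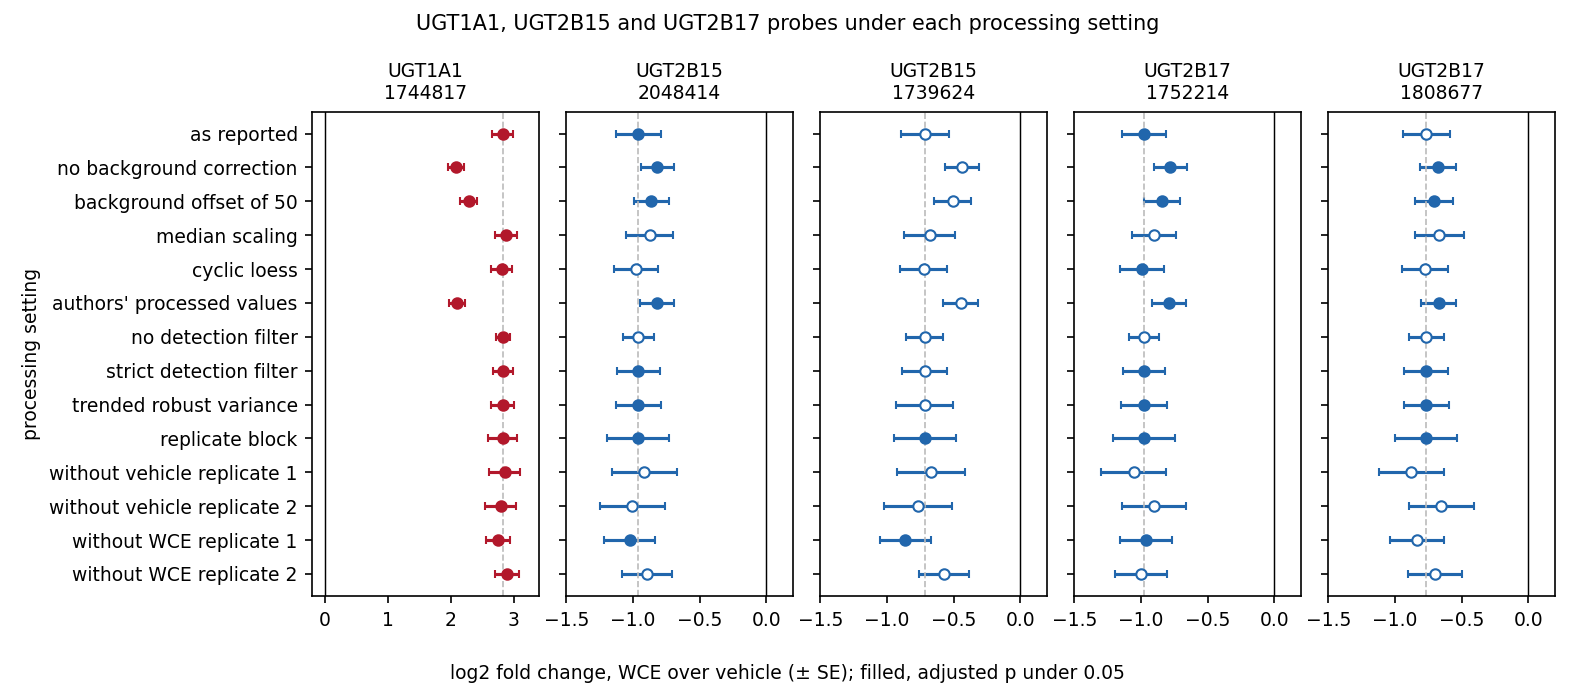
Log2 fold change, WCE over vehicle (x axis, ± SE of the limma fit), of the UGT1A1, UGT2B15 and UGT2B17 probes under each processing setting (y axis), with filled points for an adjusted p below 0.05 and a dashed line at the reported value. UGT1A1 is filled under every setting shown, whereas the UGT2B15 and UGT2B17 probes keep their sign and move in and out of the threshold.

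UGT2B10, UGT2B11 and UGT2B28, the other measured UGT2B members, did not pass. UGT2B10, which forms N-glucuronides of amines, had log2 signals of 7.92 and 8.34 with vehicle and 7.58 and 7.51 with WCE. Its log2 fold change was -0.58 ± 0.19 (adjusted p = 0.182, limma), with an interval from -1.02 to -0.14. The vehicle arrays differed by more than the WCE arrays here, and the value was -0.37 without vehicle replicate 2.

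UGT2B11 was read by 2 probes that differed. The brighter (ILMN_1810233) had log2 signals of 8.57 and 8.61 with vehicle and 8.18 and 8.28 with WCE. Its log2 fold change was -0.36 ± 0.17 (adjusted p = 0.3, limma). Its dimmer probe (ILMN_2162819) had -0.06 ± 0.17, with groups that overlapped. UGT2B28, another steroid-conjugating enzyme, was dim, with log2 signals of 5.78 and 6.03 with vehicle and 5.56 and 5.76 with WCE. Its log2 fold change was -0.25 ± 0.18 (adjusted p = 0.518, limma).

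In order of log2 fold change the UGT2B probes ran from UGT2B17 and UGT2B15 through UGT2B10 and UGT2B11 to UGT2B28 and the dimmer UGT2B11 probe, and the 95% intervals of each pair of neighbours overlapped. Of the 8 UGT2B probes 8 had a value below 0, as did 49.3% of all tested probes, and 7 had groups that did not overlap in that direction, against 24.7% of all tested probes. These probes are not independent readings, since several share a gene. The probes of UGT2B4 and UGT2B7, which act on bile acids and opioids in the liver, were not tested. UGT2B7 was detected on no array, and 1 of the 2 UGT2B4 probes on 1 vehicle array, at a raw signal of 90.6. All 7 untested member probes had raw signals between 48 and 90.6.

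**Figure D3:**
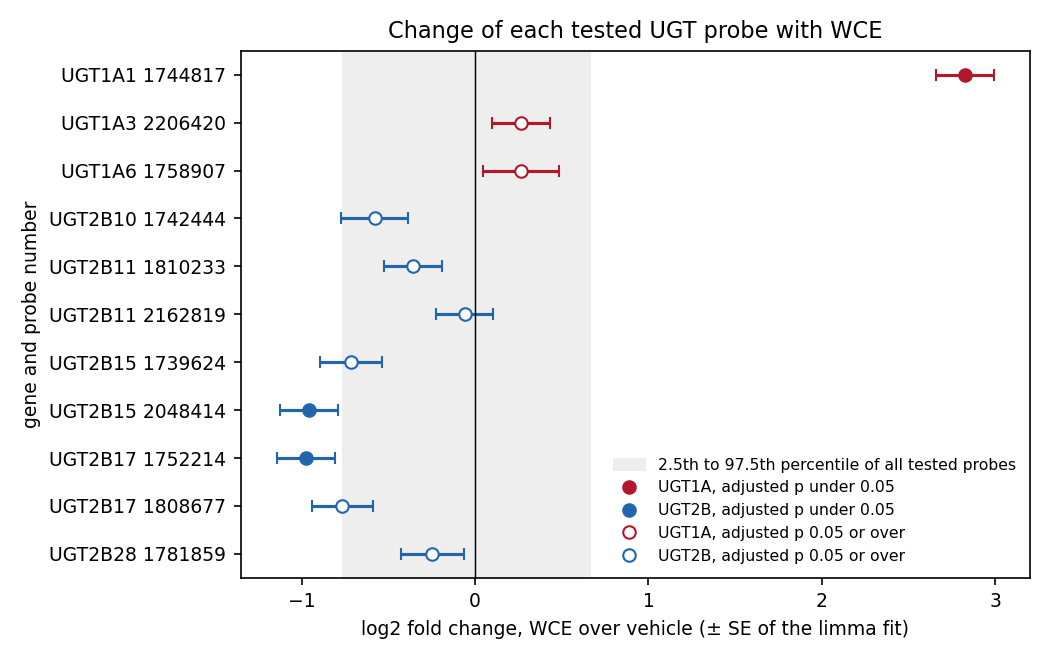
Log2 fold change, WCE over vehicle (x axis, ± SE of the limma fit), of each tested member probe (y axis), with filled points for an adjusted p below 0.05 and a grey band holding the central 95% of all tested probes, -0.76 to 0.67. The UGT1A1 probe lies far above the band and both filled UGT2B probes lie below it. The unfilled UGT2B17 probe lies just below the band's lower edge (-0.765 against -0.759). The unfilled UGT2B15 probe and the points of UGT1A3, UGT1A6, UGT2B10, UGT2B11 and UGT2B28 lie inside.

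The genes with the pattern over the 4 arrays most like that of UGT1A1, by the Euclidean distance between mean-centred log2 signals, were TIPARP (distance 0.35), CGA (0.47), CDH12 (0.475), FST (0.532) and ABCG2 (0.602), among 12135 other genes, each by its brightest tested probe. TIPARP encodes an enzyme that attaches ADP-ribose to proteins and restrains the aryl hydrocarbon receptor. For UGT2B15 the nearest were GALM (0.088), ZNF385B (0.092), LRRC37A4P (0.129), HPGD (0.136) and ANXA11 (0.151). By these brightest probes HPGD, the enzyme that inactivates prostaglandins, passed the test (log2 fold change -1.02, adjusted p = 0.0325, limma). Another ZNF385B probe, ILMN_1657087, also passed (-0.93, adjusted p = 0.0493, limma). For UGT2B17 the nearest were CRISPLD1 (0.031), COCH (0.052), PRAG1 (0.056), PRTFDC1 (0.057) and TPTE2P3 (0.061), and none passed by its brightest probe (adjusted p from 0.0802 to 0.103, limma). Distance is over 4 arrays only and is smaller where the change is small.

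Other steps of glucuronidation were described by the brightest tested probe of each gene, with the adjusted p over all probes. By that rule 0.692% of 12136 named genes were called higher and 0.313% lower, with a median log2 fold change of 0.015. Of 4 tested genes that make, spend or supply UDP-glucuronic acid, the sugar donor of every UGT, 0 passed the adjusted limma threshold and 1 was higher at an unadjusted p below 0.05. That was UGDH, the enzyme that forms UDP-glucuronic acid, with 0.56 ± 0.16 (adjusted p = 0.151). UGP2, UXS1 and PGM1 had 0.31, 0.40 and 0.18, and the list's median was 0.36. GUSB, the lysosomal enzyme that splits glucuronides, had -0.43 ± 0.17 (adjusted p = 0.24, limma). Among 4 tested export pumps for conjugates 1 rose, ABCG2, by 2.33 ± 0.21 (adjusted p = 0.00204, limma). Its raw signal went from near background with vehicle (81.1 and 85.8) to 275.8 and 177.3 with WCE. ABCG2 passed the detection filter only through the WCE arrays, the group where its mean was higher. ABCC2, ABCC4 and ABCC3 had 0.62, 0.54 and -0.10, and the median of the 4 was 0.58. Of the other UGT genes only UGT8, which adds galactose to ceramide, was tested, with -0.45 ± 0.18 (adjusted p = 0.249, limma), and the remaining 14 of 15 probes were detected on no array.

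Regulators of UGT genes did not pass at the RNA level. Of 8 tested, 0 passed the adjusted limma threshold, and at an unadjusted p below 0.05 1 was higher and 1 lower, with a median of 0.06. PPARA, a fatty acid-sensing receptor, had 0.54 (adjusted p = 0.175). AHR, the aryl hydrocarbon receptor itself, had -0.50 by its brighter probe (adjusted p = 0.258, limma) and 0.29 by its dimmer one. The brighter probe had log2 signals of 12.44 on both vehicle arrays and of 12.22 and 11.67 with WCE. Most of its difference thus came from WCE replicate 2. KEAP1 and NFE2L2, the oxidative stress sensor and its factor, had 0.29 and 0.22. Another KEAP1 probe, ILMN_2410771, had 0.47 (unadjusted p = 0.03, adjusted p = 0.229, limma). Of 5 classical targets of the aryl hydrocarbon receptor 5 rose, with a median of 4.57. They ran from NQO1 at 2.03 ± 0.17 to CYP1A1 at 6.61 ± 0.19, with CYP1B1 at 4.57 ± 0.19 and CYP1A2 at 5.55 ± 0.17 between, and UGT1A1 lay between NQO1 and TIPARP (2.97 ± 0.19). This list was known from earlier results of these data to move upward. Of its genes CYP1A2 passed the detection filter only through the WCE arrays, the group where its mean was higher. AHRR had been listed with the regulators and not with these targets. Its probe was detected on no array, at raw signals between 53.9 and 74.7.

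Genes that androgen induces were set beside UGT2B15 and UGT2B17, which it represses. Of 4 tested 3 fell, with log2 fold changes of -2.26 ± 0.17 for PMEPA1, -1.66 ± 0.18 for TMPRSS2 and -1.25 ± 0.17 for FKBP5, and KLK2 had -1.05 (adjusted p = 0.0688, limma). The list's median was -1.45, and its direction too was known beforehand. Of 5 tested genes of androgen synthesis and inactivation outside the UGT families 1 rose, AKR1C2 (1.54 ± 0.17, adjusted p = 0.00494, limma), which reduces dihydrotestosterone and has close paralogs. That value is from ILMN_2412336, with raw signals of 1245.8 and 1108.5 with vehicle and 3971.5 and 3324.8 with WCE, while the other 5 of the gene's 6 probes had raw signals between 53.2 and 87.7 and did not pass the detection filter. SRD5A1, AKR1C3, HSD17B6 and SULT2B1 had -0.19, -0.11, 0.07 and -0.02, and the list's median was -0.02.

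**Figure D4:**
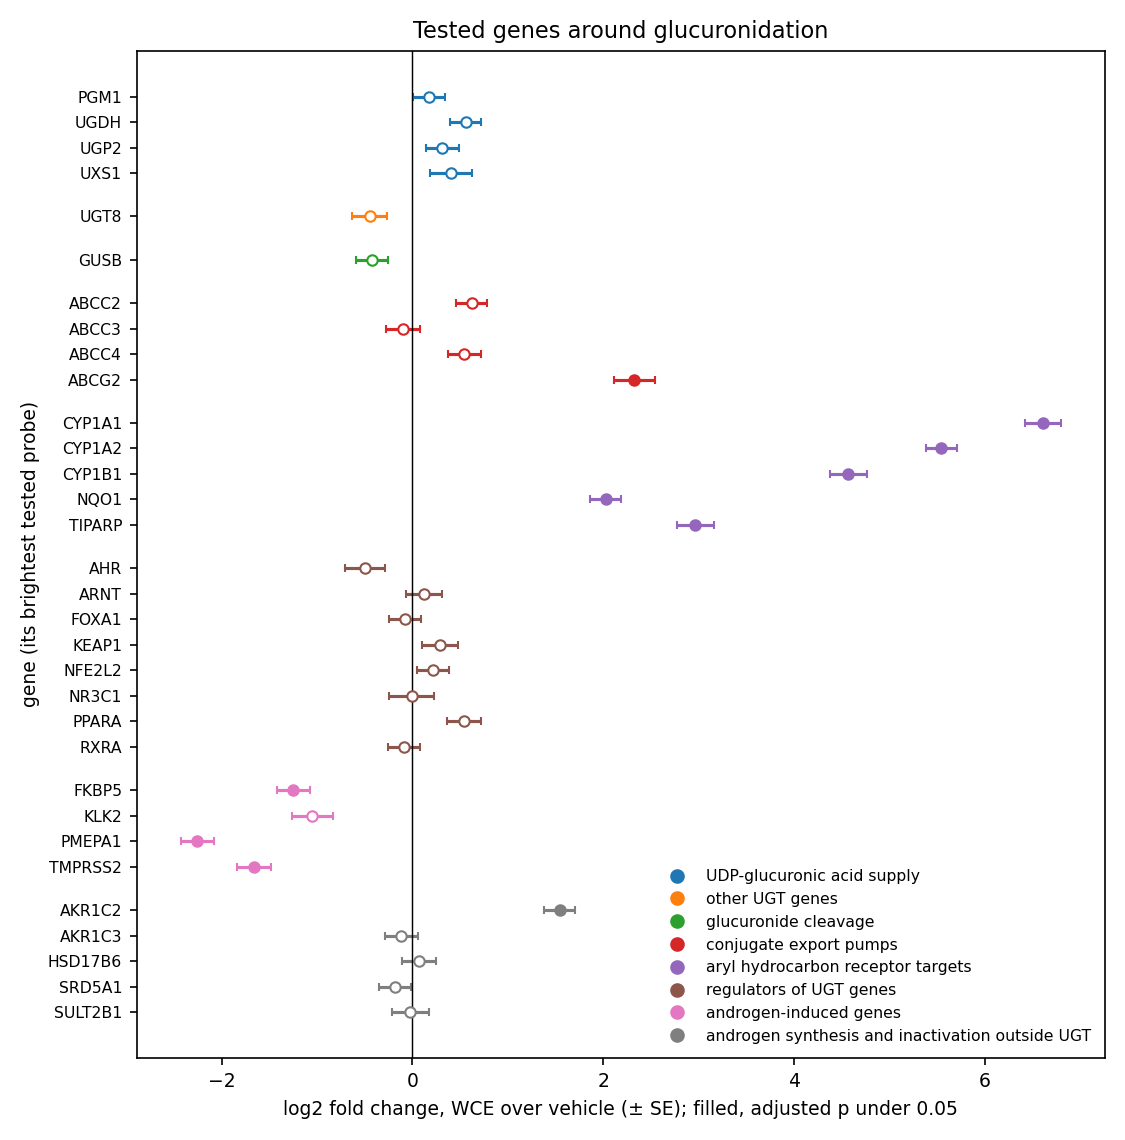
Log2 fold change, WCE over vehicle (x axis, ± SE of the limma fit), of the tested genes around glucuronidation (y axis, each by its brightest tested probe), coloured by list, with filled points for an adjusted p below 0.05. Every aryl hydrocarbon receptor target shown, ABCG2 and AKR1C2 are filled to the right, PMEPA1, TMPRSS2 and FKBP5 are filled to the left, and no gene of the UDP-glucuronic acid supply or the regulators is filled.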

How the data were processed

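Total RNA was labelled as biotinylated cRNA, per the labels' protocols. The deposited raw intensities are linear, 1 per probe and array, and their differing medians show no normalization between arrays. A deposited detection p-value stands beside each. The authors' processed log2 values have no stated method. On each array they rank as the raw signals do, and quantile-normalized raw signals, then put on the log2 scale, came within 0.134 of them.

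Signals were corrected with limma 3.58.1 under R 4.3.3 (normexp with controls estimated from detection p-values, offset 16), quantile normalized and put on the log2 scale. Probes were tested when detected (p below 0.05) on both arrays of either group. The fit (lmFit, eBayes) had 2 residual and 6.76 prior degrees of freedom, and p-values were adjusted over all 21996 tested probes. The fit was also run on simulated data, drawn as independent arrays from its own variance model. That run cannot test whether 2 arrays per group capture the real spread. Of all probes 30112 had 1 gene symbol, 8 several and 17200 none. All 18 member probes matched RefSeq by gene number and 0 symbols changed. The number of arrays limits the precision.

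The members (by symbol) and the lists were chosen with earlier results of these data known. Named genes were all member probes, list genes past the threshold with up to 4 others of smallest p, and the 5 nearest patterns of 3 members. The alternatives tried were other background corrections, scalings, filters and variance priors, the processed values, 1 probe per gene, leaving out each array, and a replicate block.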

Additional observations from a re-analysis of the deposited data

How the results depend on the processing

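Of the single-probe values recomputed for the 11 tested probes, 1 changed sign, that of UGT1A6 without vehicle replicate 2 (-0.023), 8 gained and 11 lost the call, and 121 kept both direction and side of the threshold. The number of UGT1A probes past the threshold was 1 in every alternative. For UGT2B, where 2 were reported, it was 0 with median scaling (5 at an unadjusted limma p below 0.05), 0 without a detection filter (6 unadjusted), 1 with cyclic loess, 1 with the brightest probe per gene and 4 with the replicate block, and between 0 and 3 with 1 array left out. With 1 array left out, 0 passed without either vehicle replicate or without WCE replicate 2 (4 or 5 unadjusted). Over all probes 186 passed (117 higher, 69 lower), against 401 without background correction, 397 with an offset of 50, 101 with median scaling (78 higher, 23 lower), 419 with the authors' processed values, 21 without a filter, 350 with the strict filter, 471 with a trended variance and 1182 with the replicate block. Most calls were lower with the replicate block (454 higher, 728 lower) and without WCE replicate 1 (272 higher, 761 lower), and 20 of the 21 without a filter were higher. With 1 array left out the count ran from 53 (without WCE replicate 2) to 1033 (without WCE replicate 1), and a lone array is then assumed to vary like the other group. The UGT1A median was 1.55 with the strict filter, which drops UGT1A6, and from 0.29 to 0.55 with 1 array left out. The UGT2B median was -0.45 without background correction, -0.51 with an offset of 50, -0.46 with the processed values, -0.25 without a filter, which adds 5 probes, and from -0.73 to -0.51 with 1 array left out. Where no cause is named, the cause was not tested. In the replicate block all 11 tested member probes had the same SE, 0.233, so its p-values for them rest on 1 common variance. Deviations of same-numbered arrays correlated at -0.119, and with 2 pairs the numbers were not taken to pair the samples. Pairing them crosswise, chosen after seeing the data, gave 73 probes past the threshold, 1 of UGT1A and 0 of UGT2B (5 unadjusted). Signal over background limits the UGT1A1 fold and the dim UGT1A6 and UGT2B28 probes.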

Other observations

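ALB, the albumin gene of hepatocytes, was bright in these prostate cells on every array. Its brighter probe had raw signals of 3975 and 4420.6 with vehicle and 5764.7 and 5094.1 with WCE, with a log2 fold change of 0.26 ± 0.17 (adjusted p = 0.478, limma). The other hepatocyte markers were near background: no probe of APOB, FGB, TTR or SERPINA1 passed the detection filter, and APOA1 was detected on 3 of the 4 arrays, at raw signals between 80.9 and 100.6. LUM, which encodes the matrix proteoglycan lumican, had a raw signal between 242.9 and 563.2 by its brighter probe. That probe had a log2 fold change of 0.51 (adjusted p = 0.408, limma), and the dimmer LUM probe had 0.58 (adjusted p = 0.154, limma).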
